A study of Mus musculus with 6 samples.

Results

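The E2F and RB family is described here through 10 genes, *E2f1* to *E2f8*, *Rb1* and *Rbl1*, which were chosen by symbol, with earlier results of these data known. In the mouse gene annotation used (GENCODE M21, build GRCm38) 53458 genes had transcripts in the files, of which these are 10, and all 10 were among the 22170 genes tested. Their levels were measured by RNA-seq in AML blasts of 6 mice, labelled as strain C57BL/6, with 1 library per mouse. The blasts carried *Cebpa*-/p30, so in both groups 1 *Cebpa* allele made only the short C/EBPα isoform p30 and the other allele had been deleted. In 3 mice (19, 23 and 24) *Tet2* was intact (*Cebpa*-/p30 *Tet2*+/+), and in 3 mice (5, 7 and 8) both *Tet2* alleles had been deleted as well (*Cebpa*-/p30 *Tet2*-/-).

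Per the study's methods, the floxed alleles were deleted by Mx1-Cre, a recombinase that interferon switches on in blood cells and also in some other tissues, by injecting poly(I:C) into irradiated adult female C57BL/6J.SJL recipients that had been transplanted with marrow from individual donors. Leukemic marrow cells were sorted from moribund recipients as CD45.2+ cells without CD3, B220 or Ter119. The labels give no age, batch or sort date, and nothing pairs the mice of the groups. Per the study's reporting summary each donor served several recipients. The sample titles name no donor, so mice of 1 genotype may share a donor. The estimated reads summed to between 13036643 and 32855343 per mouse. Between mice of 1 genotype the biological coefficient of variation was 43.6%. When counts of this design were simulated, edgeR's quasi-likelihood test found 37 of 100 genes that had been changed by 2 on the log2 scale and 0 of 100 that had been changed by 1. DESeq2 found 81 and 24 of them, and it also called 84 unchanged genes where edgeR called 1. With 3 mice per group an exact permutation test cannot give a two-sided p under 0.1. The edgeR and DESeq2 p-values set the difference between the genotypes against the spread between mice of 1 genotype, and they cover only these 6 mice.

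E2F proteins are transcription factors that switch on the genes a cell needs to enter S phase and copy its DNA. The retinoblastoma protein and its relatives, called pocket proteins, bind E2F proteins and hold these genes off until cyclin-dependent kinases phosphorylate the pocket proteins in G1. E2F1, E2F2 and E2F3 are the activators, E2F4 and E2F5 repress with pocket proteins in resting cells, E2F6 represses without them in a Polycomb complex, and E2F7 and E2F8 are atypical repressors that bind DNA without a DP partner. Several of these genes are themselves E2F targets, so their levels rise as a cell enters the cycle.

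RefSeq promoter windows of GRCm38.p6, from 250 bases before to 50 after a start site, were given for 7 of the 10 members with 9 start sites in all, and not for *E2f4*, *E2f5* and *Rb1*. Each window was read for 4 E2F words, TTTCCCGC, TTTCGCGC, TTTGCCGC and TTTGGCGC, on both strands. At least 1 of them was in 2.26% of all 32851 promoter windows. Windows of 4 members held one, *E2f2*, *E2f3*, *E2f7* and *Rbl1*, and those of *E2f1*, *E2f6* and *E2f8* held none of these letters. The RefSeq start of *E2f1* lies 294 bases inside the gene from the start of its transcript E2f1-201, so that window does not cover the upstream start. The *E2f8* window does not cover the start of the coding transcript E2f8-201, at position 48881041, so that start was not searched. E2f8-201 held on average 55.5% of the gene's reads in *Tet2*+/+ mice and 59.7% in *Tet2*-/- mice. The 4 windows are shown because *E2f2* is the member with the largest difference between the genotypes, and the others are the remaining members with a word. For *E2f3* and *Rbl1* only the last 150 bases of the window are printed, from 100 before to 50 after the start, because they hold the word. The capitals mark the E2F word, and each sequence runs 5′ to 3′ on the strand of its gene. *E2f2* is given as chr4:136172024-136172323 on the plus strand, *E2f3* as chr13:29986014-29986163 on the minus strand, *E2f7* as chr10:110745189-110745488 on the plus strand and *Rbl1* as chr2:157204485-157204634 on the minus strand.
E2f2: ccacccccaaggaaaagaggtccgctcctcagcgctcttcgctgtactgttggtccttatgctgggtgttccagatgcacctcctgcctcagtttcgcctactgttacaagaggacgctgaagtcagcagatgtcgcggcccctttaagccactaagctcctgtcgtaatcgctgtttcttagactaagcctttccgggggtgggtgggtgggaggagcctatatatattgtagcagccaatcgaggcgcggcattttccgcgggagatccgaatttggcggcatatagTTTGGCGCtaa
E2f3: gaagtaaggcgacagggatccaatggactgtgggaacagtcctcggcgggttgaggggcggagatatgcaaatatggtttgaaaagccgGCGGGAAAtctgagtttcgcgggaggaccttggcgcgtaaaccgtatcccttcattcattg
E2f7: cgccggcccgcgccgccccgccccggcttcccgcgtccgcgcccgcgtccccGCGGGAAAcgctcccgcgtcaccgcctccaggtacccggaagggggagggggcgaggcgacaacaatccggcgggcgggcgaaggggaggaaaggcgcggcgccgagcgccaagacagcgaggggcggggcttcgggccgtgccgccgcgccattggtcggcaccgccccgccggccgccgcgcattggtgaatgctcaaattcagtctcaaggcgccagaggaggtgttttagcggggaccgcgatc
Rbl1: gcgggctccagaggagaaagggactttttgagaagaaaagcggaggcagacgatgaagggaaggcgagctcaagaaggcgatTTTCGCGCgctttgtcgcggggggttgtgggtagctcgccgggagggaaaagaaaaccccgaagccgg

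In *E2f2* the word TTTGGCGC lay 39 to 46 bases after the RefSeq start, and the GENCODE transcript E2f2-201 starts 120 bases downstream of that start. In *Rbl1* the word TTTCGCGC lay at positions -18 to -11 from the start. In *E2f3* the word TTTCCCGC was on the opposite strand, at positions -11 to -4 from the start of the long transcript E2f3-201, and in *E2f7* it was on the opposite strand at positions -198 to -191. The words TTTGAA or TTCGAA, part of the CHR element that the MuvB complex binds, were in 19.2% of all windows and in 1 window each of *E2f2*, *E2f3* and *E2f8*, the *E2f2* one being the start of the short transcript E2f2-202. The word CCAAT, on either strand, was in 37.4% of all windows and in windows of *E2f2*, *E2f3*, *E2f7* and *E2f8*. CpG, the site at which DNA is methylated and on which TET2 acts, occurred 18 times in the *E2f2* window shown. The 9 windows held between 7 and 49 CpG against a median of 7 over all windows. DNA methylation was not analysed here.

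*Tet2*, the targeted gene, was read first. It had 73.6, 79.5 and 98.4 TMM-normalized CPM (counts scaled to library size) in *Tet2*+/+ mice 19, 23 and 24 and 111, 79.4 and 96.7 CPM in *Tet2*-/- mice 5, 7 and 8, a log2 fold change of 0.19 (SE 0.19, adjusted p = 0.842). Unless DESeq2 is named, every adjusted p is from the edgeR test, adjusted over all genes tested by the Benjamini-Hochberg method. The whole-gene level was not lower in the *Tet2*-/- blasts. The sources used here do not state which exons the floxed allele loses, so this level does not check the labels. Of 10 myeloid blast markers all 10 were above 1 CPM on average, led by *Mpo*, the myeloperoxidase of primary granules, at 2662 to 4527 CPM.

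*E2f2* had the largest difference between the genotypes, 2.33-fold higher in *Tet2*-/- blasts, and the other 9 members had log2 fold changes between -0.49 and 0.43. None of the 10 members passed an adjusted p of 0.05 with edgeR in either direction, against 0% of the 22170 genes called higher and 0.0451% called lower. At an unadjusted p of 0.05, 1 of 10 was higher, against 3% of all genes, and 0 were lower, against 5.12%. With DESeq2 on the same counts 1 member was called higher, against 0.331% of 17803 genes, and with DESeq2 on length-scaled counts, the study's own approach, 1 was called, against 0.341% of 18781 genes. The called member was *E2f2* each time. In 1 of 10 members every *Tet2*-/- mouse lay above every *Tet2*+/+ mouse, against 6.41% of all genes, and in 0 of 10 every one lay below, against 7.94%. The median log2 fold change over the 10 members was 0.05, with 7 positive and 3 negative, beside a median of 0.00 over all genes. For 7 of the 10 it was within 0.25 of 0.

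**Figure D1:**
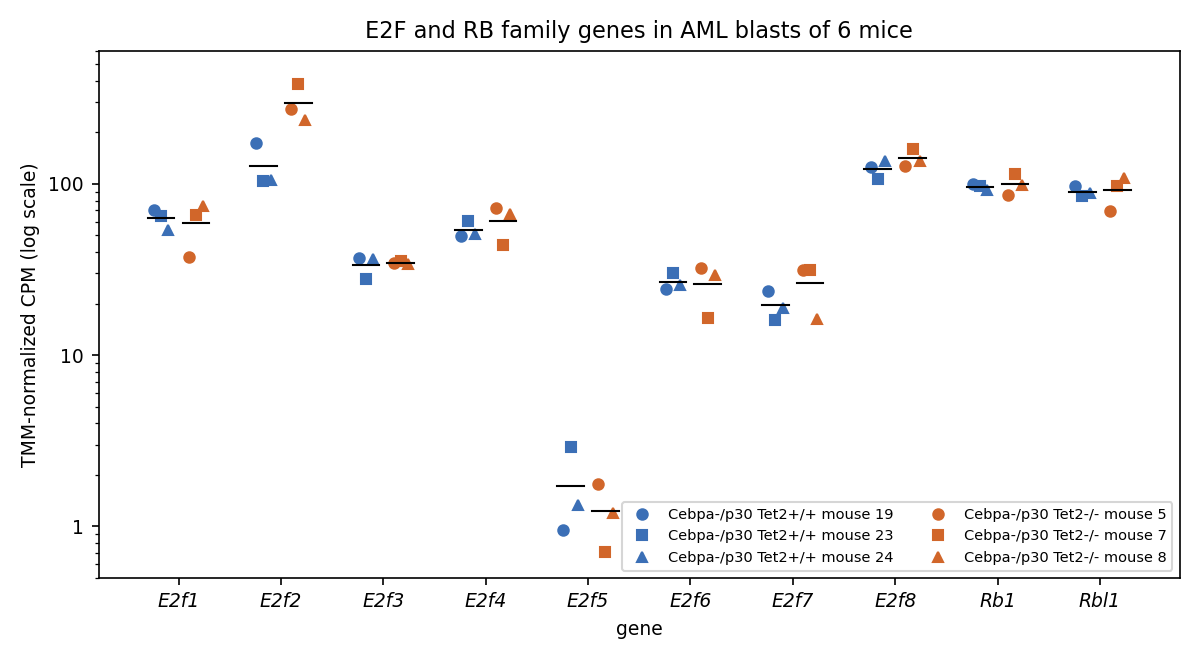
Levels of the 10 family genes in each of the 6 mice, in TMM-normalized CPM on a log axis. Points are mice, colored by genotype and shaped by mouse, and bars are the means of 3 mice. The *Tet2*-/- points lie above all *Tet2*+/+ points for *E2f2* (235 to 381 against 104 to 173 CPM), while the genotypes overlap for the other 9 genes.

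*E2f2* (ENSMUSG00000018983, chromosome 4 from 136172394 to 136196057, plus strand) encodes an activator E2F that is known from mouse knockouts to act in blood cells. It had 173, 104 and 105 CPM in *Tet2*+/+ mice 19, 23 and 24 and 274, 381 and 235 CPM in *Tet2*-/- mice 5, 7 and 8. Every *Tet2*-/- mouse was above every *Tet2*+/+ mouse, with mouse 19 the highest of its group and mouse 7 the highest of all. The means were 297 ± 75.6 CPM (SD, n = 3) and 128 ± 39.7 CPM (SD, n = 3), and the exact two-sided permutation test gave p = 0.1, the smallest possible. The log2 fold change was 1.22 with a standard error of 0.29 and a 95% interval of 0.54 to 1.89, from the t distribution with the 7.12 degrees of freedom of edgeR's test. It gave an unadjusted p of 0.00364 and an adjusted p of 0.333 from edgeR's test. DESeq2 gave an adjusted p of 0.0167 on the same counts and 0.00571 on length-scaled counts. These rested on between 1491 and 8665 reads per mouse. With 1 mouse left out at a time the log2 fold change lay between 1.001 and 1.499. In bulk RNA, more cells that express a gene and more RNA per cell cannot be told apart.

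Both annotated *E2f2* transcripts were higher in every *Tet2*-/- mouse. The coding transcript E2f2-201 held 96.1% to 97.9% of the gene's reads in each mouse. The short noncoding transcript E2f2-202 had 3.90, 3.14 and 4.20 CPM in *Tet2*+/+ mice 19, 23 and 24 and 7.51, 7.94 and 7.21 CPM in *Tet2*-/- mice 5, 7 and 8. Its log2 fold change was 1.01 (SE 0.26), beside 1.20 (SE 0.30) for E2f2-201. E2f2-202 starts inside the gene, and the window before it held CHR and CCAAT words but no E2F word.

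*E2f1* (ENSMUSG00000027490, chromosome 2 from 154559407 to 154569892, minus strand), the activator that is also known for inducing apoptosis genes, had 70.2, 64.6 and 53.9 CPM in *Tet2*+/+ mice 19, 23 and 24. It had 37.5, 65.8 and 74.8 CPM in *Tet2*-/- mice 5, 7 and 8. Mouse 5 was the lowest and mouse 8 the highest of all 6, so the *Tet2*+/+ values lay inside the range of the *Tet2*-/- values. The log2 fold change was -0.08 (SE 0.27, adjusted p = 0.964 from edgeR), and without mouse 5 it was 0.15. The coefficient of variation was 13.2% in *Tet2*+/+ and 32.8% in *Tet2*-/- mice. The transcript E2f1-202 held 58.8% to 75.6% of the gene's reads, with overlap between genotypes.

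*E2f3* (ENSMUSG00000016477, chromosome 13 from 29906575 to 29986063, minus strand), the remaining activator, makes a long and a short protein from separate start sites. It had 36.8, 27.7 and 36.5 CPM in *Tet2*+/+ mice 19, 23 and 24 and 34.4, 35.4 and 34.2 CPM in *Tet2*-/- mice 5, 7 and 8. The coefficient of variation was 1.85% over the *Tet2*-/- mice, and they lay inside the *Tet2*+/+ range. Its log2 fold change was 0.04 (SE 0.18, adjusted p = 0.974 from edgeR), with a 95% interval of -0.37 to 0.46. The upstream start (E2f3-201), whose promoter window is the one printed, held 48.1%, 41.0% and 35.3% of the gene's reads in *Tet2*+/+ mice. In the *Tet2*-/- mice, in the order 5, 7 and 8, it held 37.5%, 39.1% and 28.3%, and the genotypes overlapped (exact permutation test, two-sided p = 0.4). The 2 transcripts of the downstream start were summed, because Salmon put none of their reads on E2f3-203 in mice 19 and 23.

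The repressors that work with pocket proteins did not separate the genotypes. *E2f4* (ENSMUSG00000014859, chromosome 8 from 105297663 to 105305370, plus strand), which occupies E2F sites in resting cells, had 49.9, 60.8 and 51.1 CPM in *Tet2*+/+ mice 19, 23 and 24 and 72.4, 44.0 and 66.7 CPM in *Tet2*-/- mice 5, 7 and 8. Mice 5 and 8 were above the *Tet2*+/+ range and mouse 7 below it. Its log2 fold change was 0.18 (SE 0.22, adjusted p = 0.871 from edgeR). *E2f5* (ENSMUSG00000027552, chromosome 3 from 14578641 to 14606309, plus strand), a close relative of E2F4, was near the limit of detection with 16, 54 and 19 reads in mice 19, 23 and 24 and 56, 11 and 22 reads in mice 5, 7 and 8. That is 0.957, 2.89 and 1.34 CPM against 1.77, 0.707 and 1.19 CPM. The log2 fold change of -0.49 (SE 0.57, adjusted p = 0.865 from edgeR) was 0.085 without mouse 23, and a difference was not detectable at this depth.

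*E2f6* (ENSMUSG00000057469, chromosome 12 from 16810963 to 16839742, plus strand), the repressor that lacks a pocket-protein binding domain, had 24.2, 30.1 and 25.6 CPM in *Tet2*+/+ mice 19, 23 and 24. In *Tet2*-/- mice 5, 7 and 8 it had 32.5, 16.6 and 29.4 CPM. Mouse 7 was the lowest of the 6 and mouse 5 the highest. The log2 fold change was -0.03 (SE 0.28, adjusted p = 0.990 from edgeR), and 0.21 without mouse 7. Most of its reads were not assigned to the coding transcript. E2f6-204, which the annotation marks for nonsense-mediated decay, held 66.8% ± 1.56 of the reads in *Tet2*+/+ mice (SD, n = 3) and 64.9% ± 18.7 in *Tet2*-/- mice (SD, n = 3). The coding transcript E2f6-201 held between 0% and 30.2% of the reads and had 0 reads in mouse 7. The 2 transcripts have similar lengths, and how Salmon divided reads between them was not tested.

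*E2f8* was the more abundant of the atypical repressors, which shut off E2F targets late in S phase and lower *E2f1*. *E2f8* (ENSMUSG00000046179, chromosome 7 from 48866429 to 48881596, minus strand) had 125, 107 and 137 CPM in *Tet2*+/+ mice 19, 23 and 24 and 128, 161 and 136 CPM in *Tet2*-/- mice 5, 7 and 8. Mouse 7 was the highest and the other 5 overlapped, with a log2 fold change of 0.20 (SE 0.17, adjusted p = 0.814 from edgeR). Of its exon bases 11.2% overlap the antisense gene *Gm2788*, which had 4.41 CPM on average, and the library kit does not mark strand. *E2f7* (ENSMUSG00000020185, chromosome 10 from 110745439 to 110787384, plus strand) had 23.7, 16.1 and 18.8 CPM in *Tet2*+/+ mice 19, 23 and 24 and 31.2, 31.6 and 16.2 CPM in *Tet2*-/- mice 5, 7 and 8. Mice 5 and 7 were above the *Tet2*+/+ range and mouse 8 was within it. The log2 fold change of 0.43 (SE 0.31, adjusted p = 0.764 from edgeR) was -0.22 on length-scaled counts.

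The part of the short transcripts of *E2f7* in that change of sign was not tested. E2f7-202, a noncoding transcript of 811 bases, had 15, 37 and 25 reads in *Tet2*+/+ mice 19, 23 and 24 and 0 reads in each of *Tet2*-/- mice 5, 7 and 8. In these estimates that was at least 10.5-fold lower, taking 3 reads per *Tet2*-/- library as the floor. The floor does not cover how Salmon divided the gene's reads between its transcripts, which was not tested. Of the gene's reads E2f7-202 held 3.73% (mouse 19), 12.4% (mouse 23) and 9.39% (mouse 24). It passed the filter on low counts through the *Tet2*+/+ mice alone, so no p is given for it. The coding transcript E2f7-201 held 75.3%, 77.9% and 55.6% of the reads in the *Tet2*+/+ mice, in the order of 19, 23 and 24. Its share was 88.4% for mouse 5, 77.9% for mouse 7 and 79.4% for mouse 8. Of the 43 transcripts of the 10 members 38 were tested with edgeR among 66893 in all. E2f7-202 aside, 2 had an unadjusted p under 0.05, E2f2-201 and E2f2-202, against 5.28% of all transcripts in either direction. None had an adjusted p under 0.05, against 0% of all transcripts.

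Neither pocket protein gene separated the genotypes. *Rb1* (ENSMUSG00000022105, chromosome 14 from 73183673 to 73325822, minus strand), the retinoblastoma gene, had 100.3, 97.0 and 92.6 CPM in *Tet2*+/+ mice 19, 23 and 24 and 86.6, 115 and 98.3 CPM in *Tet2*-/- mice 5, 7 and 8. The *Tet2*+/+ values lay inside the *Tet2*-/- range, with a log2 fold change of 0.05 (SE 0.16, adjusted p = 0.965 from edgeR) and a 95% interval of -0.33 to 0.43. On length-scaled counts the value was -0.30. The short transcript Rb1-206 of 408 bases lies entirely within exons of *Lpar6* on the opposite strand, and in libraries without strand its reads cannot be told from those of *Lpar6*. *Rcbtb2*, also on the opposite strand, overlaps 8.11% of the *Rb1* exon bases and had 50.3 CPM on average. *Rbl1* (ENSMUSG00000027641, chromosome 2 from 157145893 to 157204534, minus strand), which encodes p107, had 96.7, 85.4 and 88.2 CPM in *Tet2*+/+ mice 19, 23 and 24 and 69.2, 97.1 and 109 CPM in *Tet2*-/- mice 5, 7 and 8. Mouse 5 was again below the *Tet2*+/+ range. Its log2 fold change was 0.02 (SE 0.20, adjusted p = 0.987 from edgeR).

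**Figure D2:**
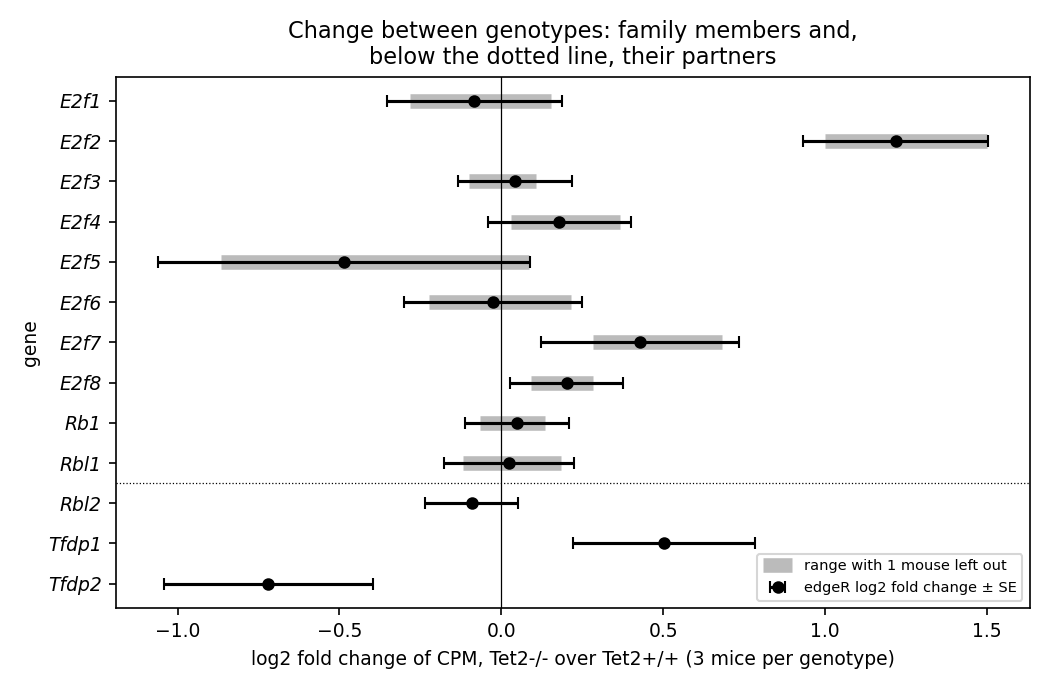
Log2 fold change of CPM in *Tet2*-/- over *Tet2*+/+ blasts from edgeR, with 3 mice per genotype. Points are estimates with their standard errors, grey bars are the range when 1 mouse is left out (members only), and *Rbl2*, *Tfdp1* and *Tfdp2* are drawn under the dotted line. The *E2f2* interval lies to the right of all others (1.22, SE 0.29), and the grey bars of *E2f1*, *E2f3*, *E2f5*, *E2f6*, *Rb1* and *Rbl1* cross 0.

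Levels were compared between genes as TPM summed over protein-coding transcripts, which is per length, because the short noncoding transcripts inflate TPM summed over a whole gene. Over the 6 mice the mean was 21.7 TPM for *E2f2*, followed by *E2f8* (18.3), *E2f4* (13.7), *E2f1* (12.6), *Rb1* (12.4), *Rbl1* (10.5), *E2f3* (4.21), *E2f7* (2.55), *E2f6* (1.24) and *E2f5* (0.600). *E2f2* was above *E2f8* in 4 of 6 mice, which were 1 of 3 *Tet2*+/+ mice and 3 of 3 *Tet2*-/- mice. In *Tet2*+/+ mice alone the means of *E2f8*, *E2f2*, *E2f4* and *E2f1* were 17.6, 13.8, 13.6 and 13.5 TPM. *E2f4*, *E2f1* and *Rb1* were not ordered beyond their spread, since *E2f4* was above *E2f1* in 3 of 6 mice and *E2f1* above *Rb1* in 3 of 6. *Rbl1* was above *E2f3*, *E2f3* above *E2f7* and *E2f7* above *E2f6* in 6 of 6 mice. The place of *E2f6* rests on how Salmon divided its reads, which was not tested. Summed over all transcripts *E2f6* had 4.42 to 9.85 TPM, against 2.09 to 5.22 TPM for *E2f7*.

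*E2f2* had 17.6, 11.9 and 11.8 TPM in *Tet2*+/+ mice 19, 23 and 24 and 26.3, 37.9 and 24.6 TPM in *Tet2*-/- mice 5, 7 and 8. The 3 activators together had 35.9, 30.04 and 28.8 TPM in mice 19, 23 and 24 and 37.4, 54.8 and 44.2 TPM in mice 5, 7 and 8. Of this activator sum *E2f2* made up 48.9%, 39.6% and 41.1% in the *Tet2*+/+ mice, named in the same order, against 70.5%, 69.1% and 55.6% in the *Tet2*-/- mice. The share of *E2f1* was 39.1%, 48.1% and 42.0% against 18.9%, 23.4% and 34.7%. *E2f1* and *E2f2* had similar shares of the activator RNA of *Tet2*+/+ blasts (43.1% ± 4.57 and 43.2% ± 4.99, SD, n = 3), and *E2f2* was the larger in each *Tet2*-/- mouse. The sum over all 8 E2F genes was 66.0 to 68.2 TPM in *Tet2*+/+ mice and 76.6 to 90.1 TPM in *Tet2*-/- mice. Without *E2f2* the other 7 summed to 50.6 to 54.6 TPM and 50.2 to 58.0 TPM, which overlapped.

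**Figure D3:**
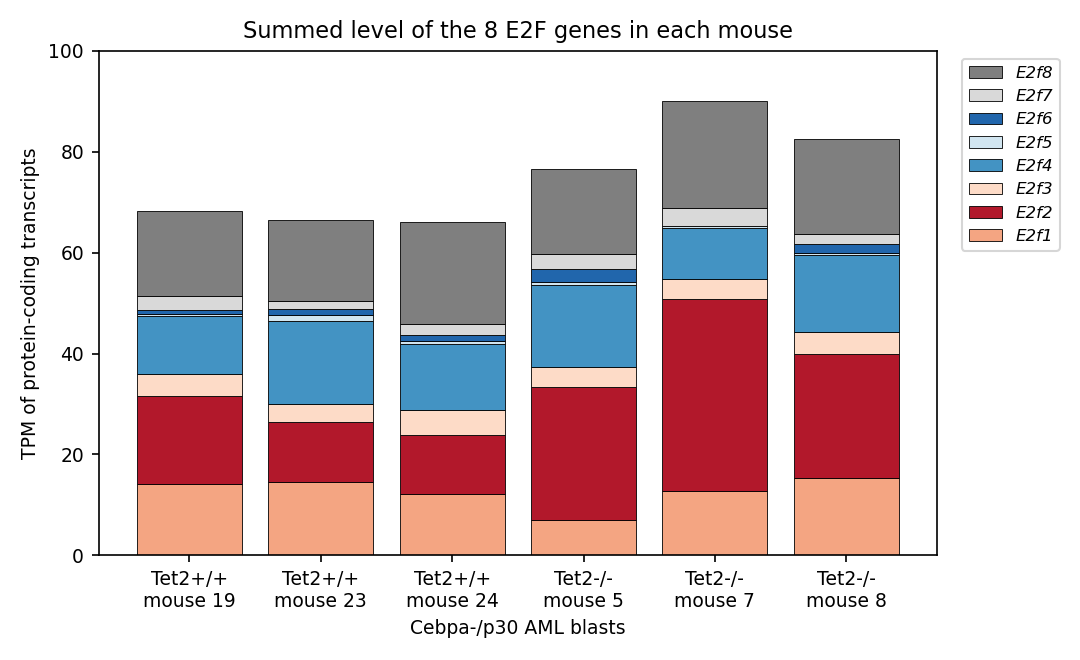
TPM of protein-coding transcripts of the 8 E2F genes, stacked for each mouse. Each bar is 1 mouse and each color 1 gene. The dark red *E2f2* segment is 11.8 to 17.6 TPM in *Tet2*+/+ mice and 24.6 to 37.9 TPM in *Tet2*-/- mice, while the other 7 segments sum to 50.2 to 58.0 TPM across all mice.

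E2F proteins other than E2F7 and E2F8 bind DNA as dimers with a DP protein. *Tfdp1*, the main DP gene, had 324, 215 and 299.6 CPM in *Tet2*+/+ mice 19, 23 and 24 and 369, 531 and 289 CPM in *Tet2*-/- mice 5, 7 and 8 (log2 fold change 0.50, SE 0.28, adjusted p = 0.690 from edgeR). *Tfdp2* had 24.9, 31.1 and 41.3 CPM against 28.4, 14.1 and 16.55 CPM (log2 fold change -0.72, SE 0.32, adjusted p = 0.634). The genotypes overlapped for both. *Rbl2*, which encodes the remaining pocket protein, p130, had 88.3 to 104 CPM in *Tet2*+/+ mice and 86.7 to 93.1 CPM in *Tet2*-/- mice (log2 fold change -0.09, SE 0.14).

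The upstream regulators of the pocket proteins were read from lists, some of which share genes. *Ccne1* and *Ccne2* are also in the replication list given below. Of 9 cyclins and kinases that phosphorylate RB, 0 passed an adjusted p of 0.05, 2 were higher and 0 lower at an unadjusted p of 0.05, 7 had positive log2 fold changes and the median was 0.44. Over all genes, for this list and the next ones, 3% were higher at that unadjusted p, 6.41% were higher in every *Tet2*-/- mouse and 50.1% had positive values, while 5.12% were lower at that p and 7.94% lower in every *Tet2*-/- mouse. *Ccnd3*, the D cyclin with the highest level here, had 347, 269.6 and 255 CPM in *Tet2*+/+ mice 19, 23 and 24. It had 551, 763 and 386 CPM in *Tet2*-/- mice 5, 7 and 8 (log2 fold change 0.96, SE 0.29, adjusted p = 0.50 from edgeR), with every *Tet2*-/- mouse higher. *Ccna2*, the S phase cyclin, had 112, 64.1 and 79.4 CPM against 139.7, 156 and 115 CPM (0.68, SE 0.24, adjusted p = 0.584), with no overlap. *Ccne2*, which drives S phase entry, was also higher in each *Tet2*-/- mouse (0.52, SE 0.23). *Ccnd1* (0.69), *Ccnd2* (0.08), *Ccne1* (0.44), *Cdk2* (0.03), *Cdk4* (-0.16) and *Cdk6* (-0.82, SE 0.40) overlapped between the genotypes. *Cdk6*, the D cyclin kinase, had 258, 474 and 328 CPM in mice 19, 23 and 24 and 322, 136 and 143 CPM in mice 5, 7 and 8.

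The CDK inhibitors, which act against these kinases, had positive log2 fold changes in 7 of 7 genes, with a median of 1.05. For *Cdkn1c* (1.503, SE 1.56), the p57 gene, mouse 5 alone was high at 9.30 CPM, and mice 7 and 8 at 0.129 and 0.163 CPM lay below every *Tet2*+/+ mouse. Here 0 passed an adjusted p of 0.05 and 1 was higher at an unadjusted p of 0.05. Their summed level was 207 to 253 CPM in *Tet2*+/+ mice and 266 to 387 CPM in *Tet2*-/- mice, but their mean log2 CPM, centred over the mice, overlapped at -0.54 to 0.20 and -0.51 to 0.94. *Cdkn2d*, which encodes the CDK4 and CDK6 inhibitor p19INK4d, had 86.1, 38.9 and 61.4 CPM in mice 19, 23 and 24 and 151, 171 and 64.4 CPM in mice 5, 7 and 8 (log2 fold change 1.05, SE 0.42, adjusted p = 0.604 from edgeR). *Cdkn2c* (0.35, SE 0.17), its close relative, was higher in each *Tet2*-/- mouse, and *Cdkn1b* (0.16, SE 0.24), the most abundant, overlapped.

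The genes of the lists downstream of E2F, of replication and of mitosis, all had smaller log2 fold changes than *E2f2*. Of 30 E2F targets of DNA replication and nucleotide synthesis, 0 passed an adjusted p of 0.05, 2 were higher at an unadjusted p of 0.05 and 4 were higher in every *Tet2*-/- mouse. The change was positive in 27 of 30, with a median log2 fold change of 0.18. *Cdc45*, a helicase subunit, had 67.7, 49.2 and 49.1 CPM in *Tet2*+/+ mice 19, 23 and 24 and 112, 97.2 and 79.5 CPM in *Tet2*-/- mice 5, 7 and 8 (0.80, SE 0.21, adjusted p = 0.419 from edgeR). *Slbp*, which binds histone mRNA, had a log2 fold change of 0.37 (SE 0.16). *Mcm6*, a helicase subunit and the most abundant of the list, had 0.03 (SE 0.19). Of 22 G2 and mitosis genes, 0 passed an adjusted p of 0.05, 4 were higher at an unadjusted p of 0.05, 7 were higher in every *Tet2*-/- mouse, and the median of 22 positive values was 0.49. *Aurkb* (0.69, SE 0.20) and *Birc5* (0.65, SE 0.21), both of the chromosomal passenger complex, were among the 7, and *Mki67* (0.52, SE 0.26), which encodes Ki67, was not.

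The summed level of the mitosis genes was 1456 to 2411 CPM in *Tet2*+/+ mice and 2345 to 3220.2 CPM in *Tet2*-/- mice, with mouse 19 above mouse 8. The genes of a list move together between mice, so their counts are not independent. Each member was therefore also set against the mean log2 CPM of these lists in the same mouse. Relative to the replication genes *E2f2* was 1.01, 0.57 and 0.68 higher on the log2 scale in *Tet2*+/+ mice 19, 23 and 24. In *Tet2*-/- mice 5, 7 and 8 it was 1.61, 2.29 and 1.40 higher. The difference between genotypes was 1.01 (exact two-sided permutation test, p = 0.1, the smallest possible). Relative to the mitosis genes it was 1.14, 1.10 and 0.62 higher in mice 19, 23 and 24 and 1.74, 1.83 and 1.59 higher in mice 5, 7 and 8, a difference of 0.76 (exact permutation test, p = 0.1).

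Among the 10 members, 1 was above in every *Tet2*-/- mouse relative to the replication genes, against 1.93% of all genes, and 0 were below, against 11.5%. Relative to the mitosis genes 1 was above, against 0.749% of all genes, and 2 were below, against 17.6%. Those 2 were *E2f3* and *Rb1*, with differences of -0.41 and -0.43, so that their share lay near that of all genes. *E2f8*, relative to the replication genes, was 0.54, 0.61 and 1.06 in *Tet2*+/+ mice 19, 23 and 24 and 0.50, 1.05 and 0.61 in *Tet2*-/- mice 5, 7 and 8. That difference was -0.02.

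**Figure D4:**
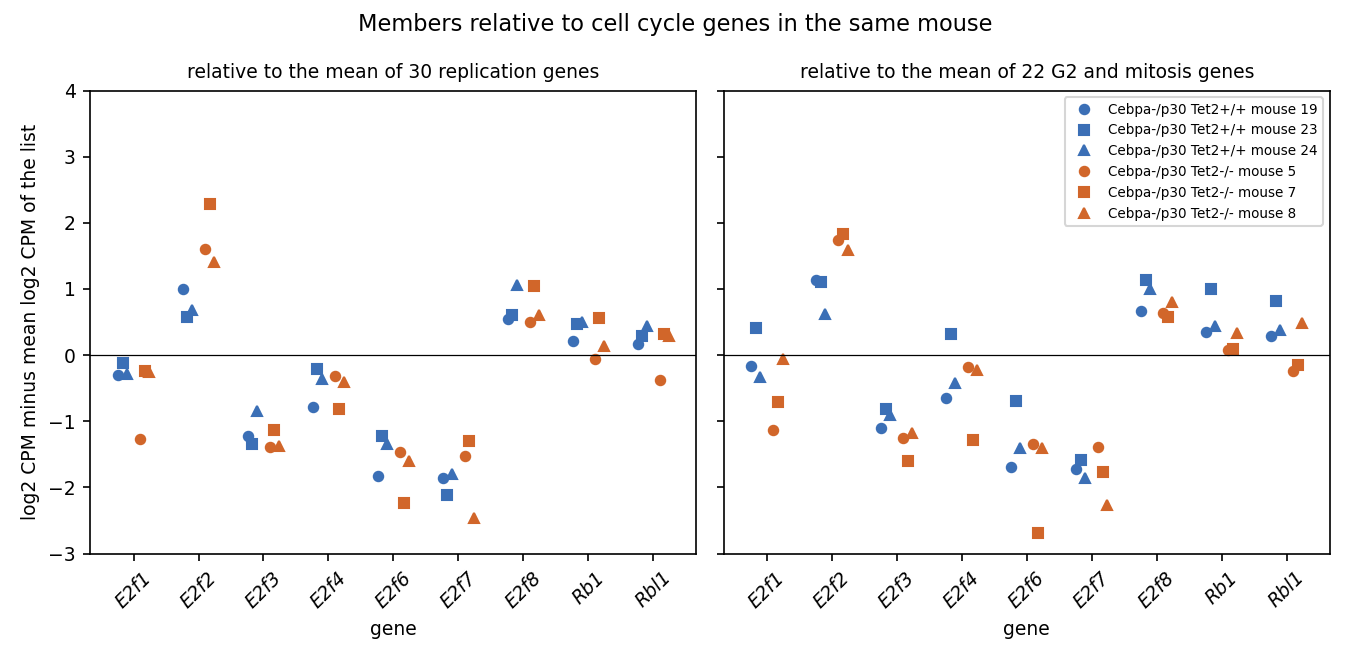
Log2 CPM of each member minus the mean log2 CPM of 30 replication genes (left) and of 22 G2 and mitosis genes (right) in the same mouse, without *E2f5*, which had at most 56 reads. Points are mice. In both panels the *Tet2*-/- points of *E2f2* (1.40 to 2.29 and 1.59 to 1.83) lie above its *Tet2*+/+ points (0.57 to 1.01 and 0.62 to 1.14).

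The remaining lists follow the partners and products of the family. Of 8 genes of the MuvB core and its MYB and FOXM1 partners, which switch on mitotic genes after E2F, 0 passed an adjusted p of 0.05 and 7 had positive log2 fold changes (median 0.26). *Foxm1* (0.57, SE 0.26), *Lin54* (0.38, SE 0.20) and *Rbbp4* (0.06, SE 0.17) are the genes named by rule. Of 12 E2F6 partners in the Polycomb complex PRC1.6, 8 had positive log2 fold changes (median 0.20), 2 were higher and 2 lower without overlap, and 1 was lower at an unadjusted p of 0.05. That gene was *Mga*, the scaffold of the complex, with 65.7, 91.7 and 74.9 CPM in *Tet2*+/+ mice 19, 23 and 24 and 44.3, 44.2 and 60.2 CPM in *Tet2*-/- mice 5, 7 and 8 (log2 fold change -0.64, SE 0.20, adjusted p = 0.527 from edgeR). *Yaf2* had 0.45 (SE 0.20) and *Cbx3* 0.08 (SE 0.17).

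Of 5 germline genes that E2F6 is known to silence, 1 was tested. *Stag3*, a meiotic cohesin gene, had 49.8, 8.99 and 220.0 CPM in *Tet2*+/+ mice 19, 23 and 24 and 12.02, 3.41 and 1.47 CPM in *Tet2*-/- mice 5, 7 and 8, and mouse 5 lay above mouse 23. Its log2 fold change was -4.02 (SE 1.25, adjusted p = 0.525 from edgeR), and it was lower at an unadjusted p of 0.05. Of 7 apoptosis genes known as E2F1 targets 6 were tested, 3 with positive and 3 with negative values (median -0.0054) and each with overlap between the genotypes. Of these 0 passed an adjusted p of 0.05 and 1 was lower at an unadjusted p of 0.05, *Pmaip1*, which encodes NOXA (log2 fold change -0.86, SE 0.34). *Tet2*+/+ mouse 24 had 36.8 CPM of it, below *Tet2*-/- mice 7 and 8 at 40.9 and 39.9 CPM, while *Apaf1*, the apoptosome scaffold, had 0.23 (SE 0.17). Of 7 genes that degrade E2F1 or regulate RB, 6 had positive values with a median of 0.37 and 1 was higher at an unadjusted p of 0.05. It was *Ccnf*, cyclin F, with 50.2, 30.7 and 41.1 CPM against 79.1, 74.0 and 50.6 CPM (0.74, SE 0.25, adjusted p = 0.564 from edgeR). *Fzr1* (0.42, SE 0.18) was higher in every *Tet2*-/- mouse and *Kdm5a* (0.01, SE 0.17) overlapped.

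**Figure D5:**
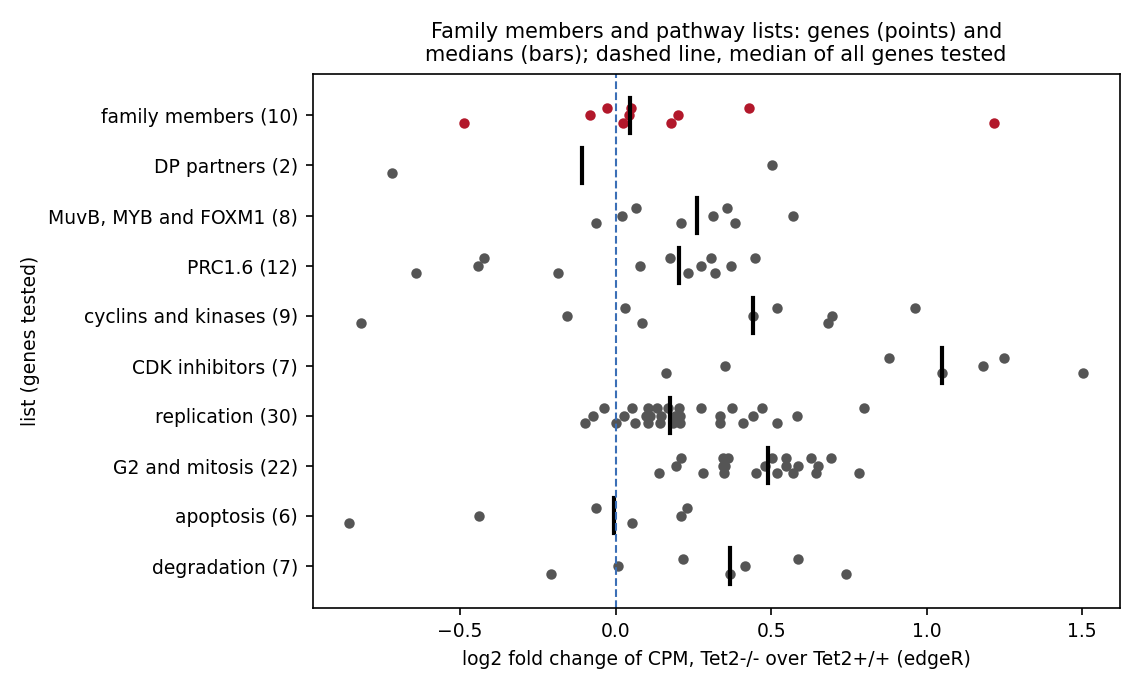
Log2 fold changes of the 10 members (red) and of the genes of 9 pathway lists (grey), from edgeR with 3 mice per genotype. Points are genes, black bars list medians and the dashed line the median of all genes tested (0.00). The median of the members is 0.05, beside 0.18 for the replication list, 0.49 for the mitosis list and 1.05 for the CDK inhibitors. Of these inhibitors *Cdkn1c*, *Cdkn2a* and *Cdkn2b* averaged only 2.17, 2.98 and 0.391 CPM over the mice.

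Other cell types were checked beside the *E2f2* result. Of 13 tested erythroid markers, whose precursors divide quickly, 11 had negative log2 fold changes with a median of -1.99, and 2 were lower at an unadjusted p of 0.05, *Gata1* (-1.99, SE 0.70) and *Alas2* (-2.49, SE 0.84), both at under 3 CPM in each mouse and without overlap. Over all genes 5.12% were lower at that p and 7.94% were lower in every *Tet2*-/- mouse. Their sum was 101 to 322 CPM in *Tet2*+/+ mice and 124 to 162 CPM in *Tet2*-/- mice, mostly from *Tfrc* (0.02, SE 0.26), which dividing cells of other types also express. Mouse 19 held the highest globin, with 83.0 CPM of *Hbb-bt* against 0.775 to 9.71 CPM in the other 5. B cell markers summed to 22.6 to 82.7 CPM and T and NK cell markers to 52.6 to 116 CPM over all mice, with overlap between genotypes. Of the latter *Ncr1*, an NK cell receptor, did not overlap, at 3.64 to 5.35 CPM in *Tet2*+/+ and 0.488 to 1.42 CPM in *Tet2*-/- mice. Of 6 megakaryocyte and platelet markers 5 had negative values, and *Itga2b* (-1.34, SE 0.43) was at 23.7 to 43.8 CPM against 6.95 to 21.7 CPM without overlap. Basophil and mast cell markers summed to 281 to 368 CPM in *Tet2*+/+ and 25.6 to 102 CPM in *Tet2*-/- mice. This separation was that of *Cpa3* (-2.66, SE 0.55), while *Mcpt8* (-0.99, SE 0.55) and *Ms4a2* (0.48, SE 0.53) overlapped and *Fcer1a* was at or near 0. Monocyte markers were at 1605 to 2821 and 2464 to 4467 CPM in sum, and among them *Ly6c2* (0.89, SE 0.27) was higher in every *Tet2*-/- mouse, at 1049 to 1623 CPM against 2124 to 2993 CPM. It made up most of the sums, and the other 4 markers overlapped, with *Ccr2*, *Csf1r* and *Cd68* lower in mouse 7 than in any *Tet2*+/+ mouse. Of 6 stem and progenitor markers 5 had negative values, 3 of them (*Meis1*, *Hlf* and *Mecom*) at under 1 CPM on average. *Cd34* had 170.4, 310.0 and 193 CPM against 90.0, 32.1 and 132 CPM, *Kit* overlapped, and *Flt3* (1.75, SE 0.80) was highest in mouse 5 at 60.4 CPM against 4.15 to 13.6 CPM in *Tet2*+/+ mice. Among 10 myeloid blast markers the median log2 fold change was 0.40 with 7 positive, but *Mpo* (-0.49, SE 0.25) was lower in every *Tet2*-/- mouse, at 4109.7 to 4527 CPM against 2662 to 3394 CPM. The part of these shifts in the *E2f2* difference was not tested.

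The 5 genes whose log2 CPM followed *E2f2* most closely over the 6 mice, out of 9174 whose mean was 10 CPM or more, were *Nlrx1*, *Asb6*, *Myl12a*, *Mtf1* and *Gm37401*, with Pearson's r of 0.991 to 0.996. They were picked as the highest of many over 6 points that share libraries and genotypes, so these are descriptions. *Nlrx1* had 50.8, 34.9 and 35.8 CPM in *Tet2*+/+ mice 19, 23 and 24 and 66.3, 90.5 and 66.0 CPM in *Tet2*-/- mice 5, 7 and 8. It shared with *E2f2* the higher mouse 19 within *Tet2*+/+ and the highest value in mouse 7.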

How the data were processed

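The members and gene lists were chosen with earlier results of these data known. AML blasts of 6 mice were sequenced from TruSeq RNA v2 libraries, which do not mark strand. The authors quantified reads with Salmon (version 0.12.0 in the submitters' processing notes) with an index of mouse Ensembl transcripts (GRCm38). Each deposited table gives an estimated count per transcript, on which no normalization between mice was done, and a TPM value that Salmon had scaled by effective length to a fixed total.

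For each gene in GENCODE M21 the estimated counts of its transcripts were added and rounded. The 112 of 136288 transcripts without a gene were left out, with 0.0307% to 0.0416% of the reads. A gene entered the test if its counts, scaled to library size, reached a sum of 10. The 3 mice of each genotype were compared with edgeR 4.0.16 (quasi-likelihood test, R 4.3.3) after TMM normalization and without covariates. P-values were adjusted by the Benjamini-Hochberg method over all genes tested. Standard errors were derived from the F statistic as log2 fold change over √F, and CPM are TMM-normalized. Transcripts were tested in the same way. Single values were compared by exact two-sided permutation tests. The scripts were tested on simulated data.

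Alternatives were DESeq2 1.42.0, length-scaled counts as tximport makes them, other filters and scalings, robust estimation, protein-coding transcripts only, limma 3.58.1 on log2(TPM + 1) and log2(TPM + 0.1), and leaving out each mouse. The genes named are the members, *Tet2*, all genes of the lists of dimer partners, *Rbl2*, and cyclins and kinases, and in each other pathway list the 2 with the smallest p and the 1 with the highest CPM, with the 5 genes most like *E2f2*. Promoters came from RefSeq, and shared sequence was searched with BLAST+ 2.17.0. Python 3.11.15, pandas 2.3.3, scipy 1.17.1 and matplotlib 3.10.9 were used. Some genes are not reported here.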

Additional observations from a re-analysis of the deposited data

How the results depend on the processing

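Over all genes, 10 were called lower with edgeR. The count was 326 with DESeq2, 327 with DESeq2 on length-scaled counts, 3 with edgeR on length-scaled counts, 62 without a filter, 1 with protein-coding transcripts only, and 0 to 7 with 1 mouse left out. Called higher were 59 and 64 genes with DESeq2 on counts and on length-scaled counts, 4 without a filter, 1 with filterByExpr and 1 with RLE factors, in place of 0. In simulated counts DESeq2 called 84 unchanged genes and edgeR 1, and with no gene changed 39 and 0, while DESeq2 recovered 81 of 100 genes changed by 2 on the log2 scale and edgeR 37. Members called higher were 1 with DESeq2 on either kind of count and 0 otherwise. *E2f2* was positive under all 17 alternatives (0.995 to 1.499), with DESeq2 values of 1.23 and 1.14. *E2f4* and *E2f8* were also positive under all 17.

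Log2 fold changes of other members changed sign, none of them called. Scaling by library size only, which moved the median of all genes to -0.17, gave -0.13 for *E2f3*, -0.13 for *Rb1* and -0.15 for *Rbl1*. Length-scaled counts gave -0.22 for *E2f7* with edgeR and -0.22 with DESeq2, and -0.30 and -0.29 for *Rb1*. Limma on log2(TPM + 1) and log2(TPM + 0.1) gave -0.036 and -0.042 for *E2f3*, -0.29 and -0.37 for *E2f7*, -0.41 and -0.42 for *Rb1*, and -0.087 and -0.095 for *Rbl1*. Protein-coding transcripts only gave -0.0050 for *E2f3* and 0.31 for *E2f6*. With 1 mouse left out the ranges were -0.28 to 0.15 for *E2f1*, -0.10 to 0.11 for *E2f3*, -0.86 to 0.085 for *E2f5*, -0.22 to 0.21 for *E2f6*, -0.065 to 0.14 for *Rb1* and -0.12 to 0.18 for *Rbl1*. The cause was not tested.

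Relative to the replication genes and with 1 mouse left out, the ranges were -0.24 to 0.086 for *E2f4*, -0.066 to 0.51 for *E2f7*, -0.18 to 0.15 for *E2f8* and -0.34 to 0.012 for *Rbl1*. Relative to the mitosis genes in place of the replication genes, *E2f7* was -0.084. No paired analysis was possible because the mouse numbers are not shared between the genotypes. Limits are 3 mice per genotype, 1 library each, and at most 56 reads for *E2f5*.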
